A study of Mus musculus with 18 samples.

Results

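The 39 genes described here encode the subunits of the voltage-gated sodium and calcium channels, among 38924 genes in each deposited table. They were taken by their symbols alone, as every gene named Scn followed by a number and the letter a or b, and every gene named for a calcium channel alpha1, alpha2delta, beta or gamma subunit. The sodium channels gave 9 alpha and 4 beta subunits. The calcium channels gave 10 alpha1, 4 alpha2delta and 4 beta subunits and 8 genes of the gamma family, several of which encode TARPs, accessory proteins of AMPA-type glutamate receptors. Scn2a1, the symbol these tables use for the gene of a further neuronal sodium channel alpha subunit, falls outside the rule because of its closing digit, and its values are given beside those of the other alpha subunits.

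Ribosome-bound mRNA was sequenced from spinal cords of 18 mice aged 8 weeks on a mixed background (B6;CASTxB6.129). All mice were heterozygous for Rpl22 with a haemagglutinin tag, the RiboTag allele, which puts the tag on ribosomes of cells with Cre recombinase, and an antibody against haemagglutinin was used to isolate these ribosomes with their mRNA. Cre came from a heterozygous Chat-Cre allele, so it is driven by the promoter of the choline acetyltransferase gene, which is active in spinal motor neurons and other cholinergic cells. The groups were Cre P278KY (3 mice, heterozygous for the P278KY change in the glycyl-tRNA synthetase gene Gars, a mouse model of an inherited motor neuropathy), Cre WT (4 mice, written P278KY+/+ in the labels and read here as Gars wild type), and mice of both Gars genotypes without Cre, NoCre P278KY with 6 mice and NoCre WT with 5, whose pull-down is unspecific background. Each library has a label of its own made of a number, called the mouse number here, and a suffix, and is read here as 1 mouse. The 18 libraries share 7 such numbers, also within groups (Cre P278KY replicates 1 and 3, for example), and what a shared number means is not given in the sources used here. The p-values measure the spread between these libraries.

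Sodium channel alpha subunits form the pore that carries the rising phase of the action potential, and their beta subunits set gating and tether the channel at the axon initial segment and the nodes of Ranvier. Calcium channel alpha1 subunits form the pores that trigger transmitter release and shape firing, while alpha2delta and beta subunits bring them to the membrane. In motor neurons these channels govern repetitive firing and release of acetylcholine at the neuromuscular junction.

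The genes that passed the test between Cre P278KY and Cre WT were Scn2b, Cacna2d1 and Cacng3, and upstream sequence of the first pair is printed to show how different their starts are. RefSeq (GRCm38.p6) gave windows from 250 bases before to 50 bases after the start for 29 of the 39 genes, 39 windows in all. For Scn2b the first 156 bases of the window are shown, up to the GENCODE start of the gene, and for Cacna2d1 the 250 bases before the start. Capitals mark GC boxes (GGGCGG, here read on the opposite strand as CCGCCC, with the last pair overlapping by 1 base).
Scn2b, chr9:45117626-45117781, plus strand: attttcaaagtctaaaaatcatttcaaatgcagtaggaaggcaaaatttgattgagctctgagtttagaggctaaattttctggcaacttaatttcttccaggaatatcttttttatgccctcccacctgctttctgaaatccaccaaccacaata
Cacna2d1, chr5:15934441-15934690, plus strand: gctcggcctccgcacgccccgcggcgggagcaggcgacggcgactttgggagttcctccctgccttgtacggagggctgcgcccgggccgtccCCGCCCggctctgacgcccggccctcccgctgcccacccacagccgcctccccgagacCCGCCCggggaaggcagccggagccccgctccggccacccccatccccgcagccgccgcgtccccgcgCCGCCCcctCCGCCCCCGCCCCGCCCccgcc
The Scn2b stretch is 35.3% G and C, holds no GC box, TATA box (TATAAA), cAMP response element (TGACGTCA) or composite element of ATF4 and C/EBP (TGATGNAA), and the Cacna2d1 stretch is 82.4% G and C with 6 GC boxes. Searched on both strands, a GC box occurred in 16 of the 39 windows and in 35.7% of 32851 windows of all genes, a TATA box in 1 and in 13.6%, the composite element in 2 (Scn9a and Cacna1c) and in 3.97%, and the cAMP response element in none and in 1.79%. A match describes the letters and is not a bound site.

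The Cre P278KY libraries held between 15461440 and 18944769 counts and the Cre WT libraries between 14659488 and 24028649, whereas NoCre P278KY had between 9876808 and 14450144 and NoCre WT between 8177758 and 11480402. Mitochondrial ribosomal RNA took 2.16% to 4.88% and 1.36% to 3.36% of the counts in the Cre groups, against 24.2% to 38.6% and 31.8% to 53.8% in the NoCre groups of the same genotypes. The summed level of 12 motor neuron markers was 1868 to 2352 CPM (counts per 1000000 after TMM scaling) in Cre P278KY and 2070 to 3669 CPM in Cre WT, against 97.0 to 115 CPM in NoCre P278KY and 145 to 167 CPM in NoCre WT. Chat had 119, 97.8 and 97.7 CPM in Cre P278KY and 148, 169, 80.9 and 87.5 CPM in Cre WT, against 1.93 to 3.58 CPM (median 3.04) in NoCre P278KY and 7.85, 6.07, 5.86, 6.77 and 12.9 CPM in NoCre WT. Gars averaged 273 ± 23.1 CPM in Cre P278KY (SD, n = 3) and 139 ± 29.3 CPM in Cre WT (SD, n = 4), a difference that passed (1.01, adjusted p = 0.0219), and Rpl22 averaged 34.6 ± 0.0757 CPM and 32.7 ± 9.75 CPM in the same groups. By index and sample numbers in the labels, 10 libraries formed a first sequencing pool and 8 a second one. All Cre P278KY libraries and Cre WT replicates 1 and 2 were in pool 1, and Cre WT replicates 3 and 4 in pool 2. Xist, which marks female tissue, was at 40.1 CPM or more in every pool 2 library and in Cre P278KY replicates 2 and 3, and below 1 CPM in the others, so pool and sex cannot be told apart in the comparisons of Cre WT with NoCre WT and of NoCre P278KY with NoCre WT.

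Scn1a had the highest mean level of the family in the Cre pull-downs, compared here in TPM (transcripts per 1000000), which allow for gene length. In CPM, given below, Scn8a was close to Scn1a in both groups, so the lead over Scn8a rests on the estimated transcript lengths. Scn1a, a pore subunit prominent in fast-firing neurons, averaged 101 ± 45.4 TPM in Cre P278KY (SD, n = 3) and 163 ± 65.4 TPM in Cre WT (SD, n = 4). High levels in Cre P278KY were also those of Cacna2d2 (39.5 TPM), Scn2b (36.3), Cacng7 (35.6), Scn8a (33.6) and Scn4b (31.6), and in Cre WT those of Scn4b (56.3 TPM), Scn8a (45.6), Cacna2d3 (39.3), Cacng7 (35.3) and Cacna2d2 (34.5). By mean TPM Scn2b had rank 4 in Cre P278KY and rank 11 in Cre WT. Neighbours in the order mostly overlapped: all libraries of a gene lay above all of the next for few genes, among them Cacng4 and Cacna1i in Cre P278KY and Scn1a in Cre WT. The skeletal muscle pore gene Scn4a was close to 0, at no more than 0.06 TPM in any Cre library.

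**Figure D1:**
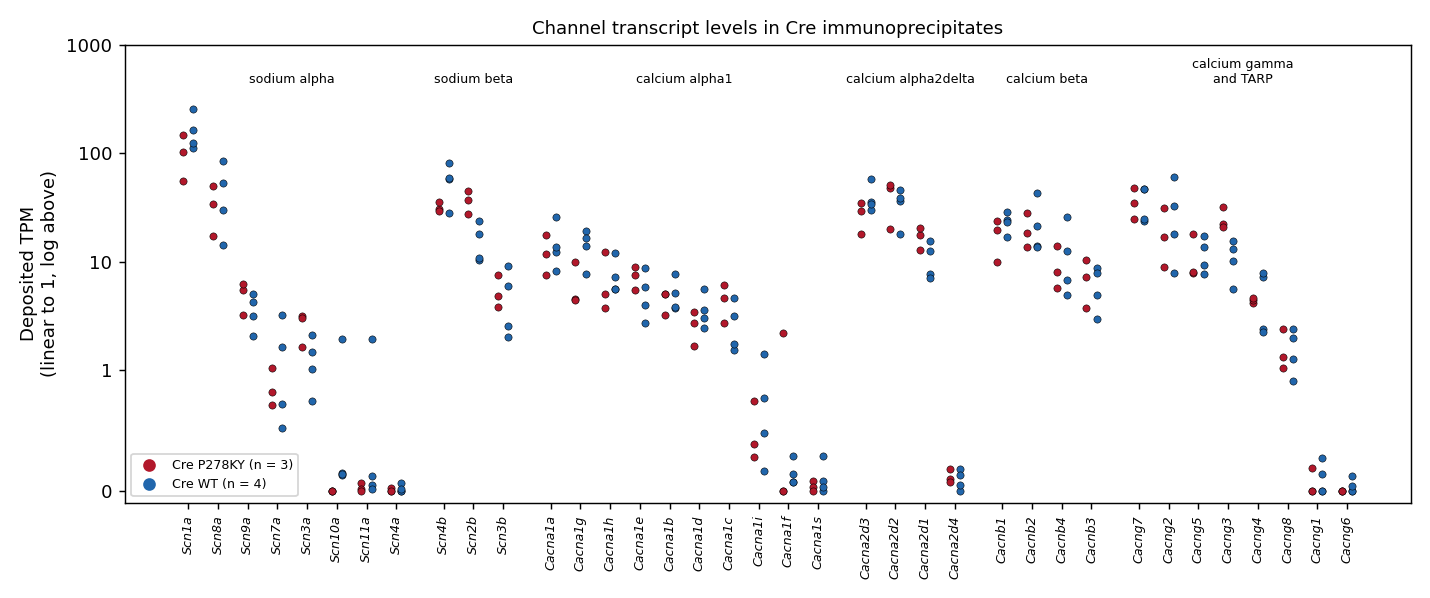
Deposited TPM of 37 channel genes by family in the 3 Cre P278KY (red) and 4 Cre WT (blue) libraries, on an axis that is linear to 1 TPM and logarithmic above. Each point is 1 library, and Scn1a lies highest, with Scn2b libraries of Cre P278KY all above those of Cre WT.

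The make-up of each family also described the pull-down. Summed sodium alpha levels, Scn2a1 included, were 85.9 to 219.8 TPM in Cre P278KY and 145 to 359.6 TPM in Cre WT, and Scn1a made up 63.7% to 66.2% and 69.3% to 85.8% of them. Scn2a1 gave 6.33% to 9.46% of the sodium alpha sum in Cre P278KY and 1.84% to 2.76% in Cre WT, without overlap. Of the sodium beta sum, Scn2b held 21.8% to 23.2% in Cre P278KY and 6.66% to 10.5% in Cre WT, while Scn4b held 18.2% to 23.4% and 20.3% to 36.9%. Among calcium pores, Cacna1a of the P/Q type held 20.2% to 33.0% and 20.3% to 33.0%. Cacna1g of the T type held 12.02% to 15.6% in Cre P278KY and 20.8% to 34.7% in Cre WT. Cacna1e of the R type held 13.8% to 20.0% in Cre P278KY and 7.24% to 10.4% in Cre WT. In NoCre P278KY and NoCre WT, Scn1a made up 36.5% to 58.2% and 42.8% to 63.8%, and Scn2a1 8.70% to 10.4% and 8.10% to 11.6%. Scn2b held 19.9% to 31.0% and 17.2% to 25.6%, and Scn4b 23.6% to 34.1% and 22.3% to 35.5%. Cacna1a held 33.3% to 44.2% and 26.4% to 38.8%, and Cacna1g 7.26% to 23.6% and 14.5% to 24.6%. Cacna1e held 11.3% to 18.3% and 6.54% to 16.1%. These shares are levels, given without a test.

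The comparison of Cre with NoCre asked which channel mRNAs the cholinergic ribosomes carried above background. In P278KY mice 9 of 36 tested channel genes rose and 10 fell, where 59.4% of all 17133 genes passed the test (28.2% higher and 31.2% lower). The falls there include Scn10a, which had 0 reads in Cre P278KY and so could only be called lower. In WT mice 10 rose and 9 fell, against 59.7% of all genes (28.5% higher and 31.2% lower). Groups did not overlap for 17 of the 36 in P278KY mice and 13 in WT mice, against 56.2% and 43.2% of all genes. The median log2 fold change was -0.05 in P278KY mice and 0.02 in WT mice, against -0.13 and -0.12 over all genes. Cacng1, Cacng6 and Scn4a had too few counts to be tested. These comparisons share no library, and 7 genes rose in both, among them Cacna2d3, Cacng5, Cacng3, Cacnb1, Scn9a and Scn1a, which is 77.8% of the rises in P278KY mice and 70.0% of those in WT mice. Over all genes the shares were 82.0% and 81.4%. Falls in both genotypes numbered 6 (Cacna1i, Cacng4, Scn3a, Cacna1b, Scn7a and Cacna1e), 60.0% of those in P278KY mice and 66.7% of those in WT mice, against 77.4% and 77.2% over all genes. The calls of Cacna1b, Cacng4, Cacnb1, Cacna2d3, Cacna1i, Scn7a, Cacng5 and Cacng3 in P278KY mice, and of Cacna2d3, Cacng5, Cacnb1, Scn4b, Cacna1b, Cacng4, Cacna1i and Scn3a in WT mice, held under every alternative run, and each of the other calls reported here was lost under at least 1. In bulk libraries like these, fewer cells of a type and less RNA per cell cannot be told apart.

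**Figure D2:**
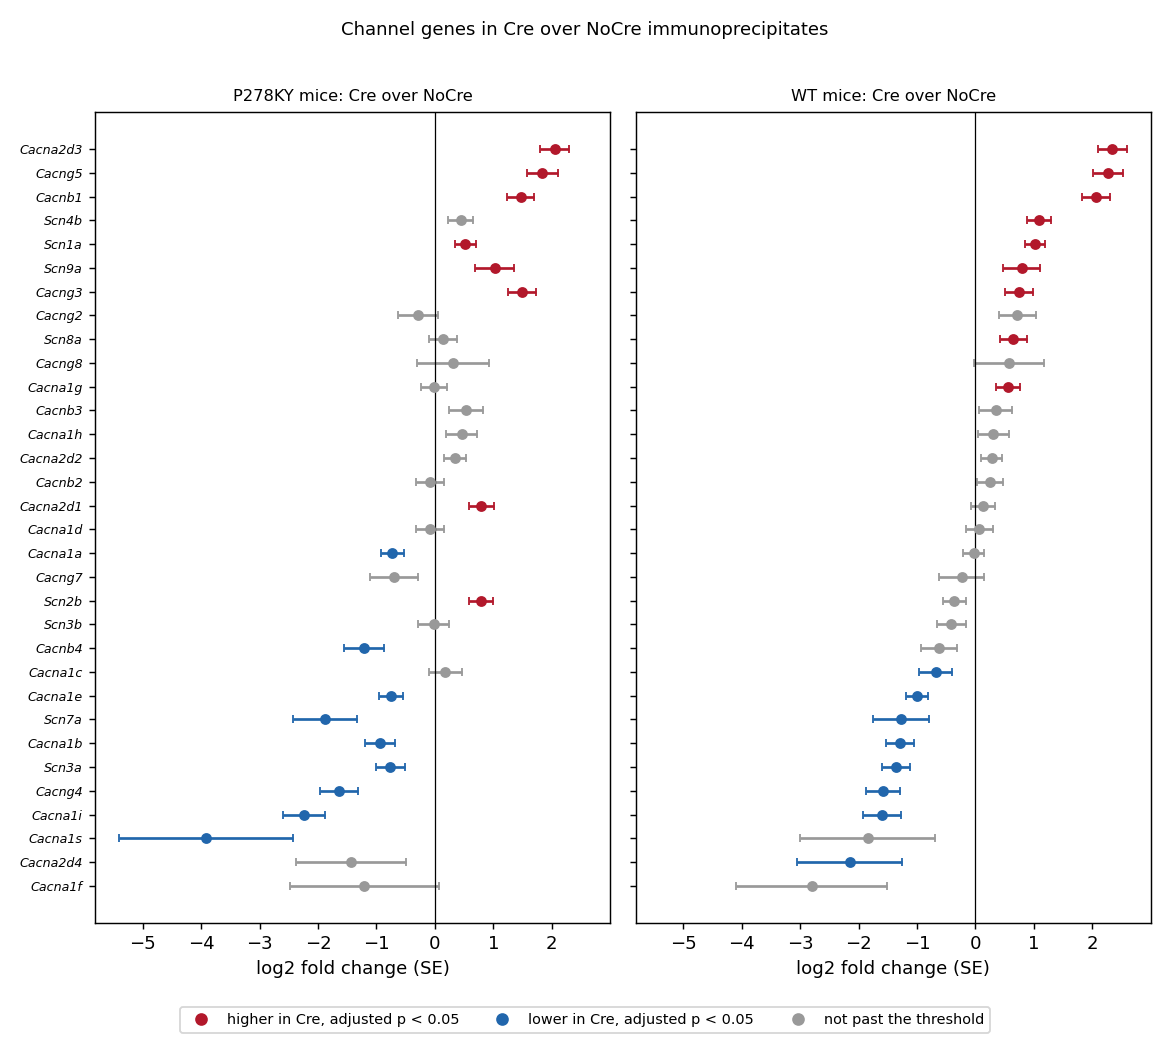
Log2 fold change of Cre over NoCre (dot) with its standard error (bar) for 32 tested channel genes in P278KY mice (left) and WT mice (right), ordered by the value in WT mice, with Scn10a and Scn11a not drawn. Cacna2d3 and Cacng5 lie highest in both panels, and Scn2b and Cacna2d1 pass the threshold in P278KY mice and not in WT mice, a difference that itself did not pass the edgeR test for either.

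Among sodium channel pores, Scn1a, Scn9a and, in WT mice, Scn8a rose. Scn1a and Scn9a lie side by side in a row of 5 alpha genes on chromosome 2 (65457118 to 66784914, GRCm38), where Scn3a and Scn2a1 come before them and Scn7a after. Scn1a had 250.1, 257 and 182 CPM in Cre P278KY and 347, 277.9, 389 and 300.2 CPM in Cre WT, against 130.4 to 200.3 CPM (median 157) in NoCre P278KY and 184, 159, 149.6, 140.1 and 179.6 CPM in NoCre WT. The log2 fold change over NoCre was 0.52 ± 0.18 (SE), adjusted p = 0.0147 in P278KY mice and 1.02 ± 0.17 (SE), adjusted p = 3e-05 in WT mice. In WT mice the groups did not overlap, while 1 Cre P278KY library lay among the NoCre values. Scn8a, the main pore subunit of mature nodes of Ranvier, had 257, 290.4 and 166 CPM in Cre P278KY and 317, 168, 416 and 342 CPM in Cre WT, against 190.1 to 243 CPM (median 218) in NoCre P278KY and 236, 200.3, 258, 157 and 139 CPM in NoCre WT. It passed in WT mice (0.65, adjusted p = 0.0179) but not in P278KY mice (0.14, adjusted p = 0.617), and its groups overlapped in both. Within the pools the WT value was 0.19 (adjusted p = 0.616) in pool 1 and 1.03 (adjusted p = 0.0174) in pool 2. Scn9a, best known from sensory and sympathetic neurons, had 30.6, 20.6 and 19.6 CPM in Cre P278KY and 21.6, 11.6, 16.3 and 17.5 CPM in Cre WT, against 7.53 to 15.8 CPM (median 11.3) in NoCre P278KY and 8.72, 15.2, 14.4, 4.78 and 4.87 CPM in NoCre WT. Its rise was 1.02 (adjusted p = 0.0113) in P278KY mice, where no libraries overlapped, and 0.79 (adjusted p = 0.0405) in WT mice, where they did.

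Scn3a and Scn7a fell, and Scn2a1 fell in WT mice. Scn3a, a pore subunit typical of the embryonic nervous system, had 9.37, 10.4 and 12.4 CPM in Cre P278KY and 5.54, 6.09, 6.24 and 7.31 CPM in Cre WT, against 13.4 to 23.0 CPM (median 18.5) in NoCre P278KY and 19.6, 15.8, 17.6, 9.95 and 17.3 CPM in NoCre WT. All Cre values were below all NoCre values of their genotype, with log2 fold changes of -0.76 (adjusted p = 0.0125) in P278KY mice and -1.35 (adjusted p = 6.48e-05) in WT mice. Scn7a, an atypical member that senses extracellular sodium, had 5.25, 2.73 and 5.34 CPM in Cre P278KY and 4.98, 4.12, 5.24 and 13.6 CPM in Cre WT, against 10.8 to 26.8 CPM (median 15.4) in NoCre P278KY and 23.9, 32.4, 17.2, 4.78 and 5.78 CPM in NoCre WT. In P278KY mice it fell without overlap (-1.88, adjusted p = 0.00606), and in WT mice it fell with overlap (-1.27, adjusted p = 0.0286), at -2.59 in pool 1 and -0.01 in pool 2. Scn2a1 had 51.2, 57.2 and 47.4 CPM in Cre P278KY and 24.01, 22.4, 30.9 and 25.0 CPM in Cre WT, against 34.1 to 59.3 CPM (median 52.6) in NoCre P278KY and 45.0, 52.9, 76.9, 40.2 and 57.6 CPM in NoCre WT. The 3 Cre P278KY values lay within the NoCre range (0.04, adjusted p = 0.887), whereas all Cre WT values lay below it (-1.09, adjusted p = 0.00012).

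Among sodium beta subunits, Scn4b rose in WT mice and Scn2b in P278KY mice. Scn4b, the subunit linked to resurgent current in fast-spiking neurons, had 102, 89.5 and 127 CPM in Cre P278KY and 262, 147, 174 and 166 CPM in Cre WT, against 57.4 to 111 CPM (median 75.3) in NoCre P278KY and 83.9, 98.8, 70.9, 106 and 81.3 CPM in NoCre WT. It rose in WT mice (1.09, adjusted p = 0.000121), where Cre and NoCre did not overlap, and missed the threshold in P278KY mice (0.44, adjusted p = 0.0761). Scn2b, which is joined to alpha subunits by a disulfide bond, had 107, 102 and 109.5 CPM in Cre P278KY and 43.5, 52.0, 45.1 and 46.8 CPM in Cre WT, against 49.4 to 92.6 CPM (median 55.4) in NoCre P278KY and 48.3, 64.2, 43.9, 67.3 and 77.5 CPM in NoCre WT. It rose in P278KY mice (0.79, adjusted p = 0.0022), where every Cre value was above every NoCre value. In WT mice its Cre values overlapped with the lower NoCre values (-0.36, adjusted p = 0.12), and its direction turned with scaling by library size alone (0.01). It was called lower with RLE factors (-0.50), DESeq2 (-0.50) and library sizes that leave out mitochondrial ribosomal RNA (-0.73). Scn3b averaged 14.2 ± 1.34 CPM in Cre P278KY (SD, n = 3) and 10.3 ± 3.73 CPM in Cre WT (SD, n = 4), and passed over NoCre in neither genotype.

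Of the 10 calcium pore genes 5 fell and none rose in P278KY mice, and 4 fell and 1 rose in WT mice, while 59.4% and 59.7% of all genes were called, 31.2% as lower in each genotype. In P278KY mice the 10 had a median log2 fold change of -0.74 and in WT mice of -0.84, against -0.13 and -0.12 over all genes. Cacna1a, the P/Q-type pore that drives release at the neuromuscular junction, had 26.1, 39.4 and 28.1 CPM in Cre P278KY and 53.1, 53.9, 65.6 and 47.3 CPM in Cre WT, against 46.1 to 59.5 CPM (median 51.6) in NoCre P278KY and 65.0, 41.5, 59.6, 51.7 and 62.2 CPM in NoCre WT. It fell in P278KY mice (-0.73, adjusted p = 0.00318), where the groups did not overlap, and gave -0.03 (adjusted p = 0.905) in WT mice. Cacna1b, the N-type pore of central terminals, had 25.7, 23.9 and 24.8 CPM in Cre P278KY and 22.4, 25.7, 21.6 and 17.2 CPM in Cre WT, against 43.9 to 51.0 CPM (median 47.7) in NoCre P278KY and 52.2, 39.3, 28.4, 58.7 and 87.1 CPM in NoCre WT. Its falls were -0.94 (adjusted p = 0.0033) in P278KY mice and -1.29 (adjusted p = 0.0001) in WT mice, without overlap in either. Cacna1e, the R-type pore, had 65.7, 59.1 and 62.3 CPM in Cre P278KY and 48.0, 37.2, 48.9 and 43.2 CPM in Cre WT, against 85.6 to 123 CPM (median 105) in NoCre P278KY and 110.3, 90.3, 75.4, 58.7 and 107 CPM in NoCre WT. It likewise lay below all NoCre values of its genotype, at -0.75 (adjusted p = 0.00325) in P278KY mice and -0.99 (adjusted p = 0.00014) in WT mice.

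The T-type pores, which open near rest, split. Cacna1g had 25.0, 31.1 and 22.3 CPM in Cre P278KY and 63.8, 41.2, 46.6 and 47.2 CPM in Cre WT, against 23.0 to 28.5 CPM (median 26.6) in NoCre P278KY and 25.1, 24.8, 30.6, 43.0 and 46.2 CPM in NoCre WT. It rose in WT mice (0.55, adjusted p = 0.026) with overlap between the groups, at 1.10 within pool 1 and 0.22 within pool 2, and gave -0.01 (adjusted p = 0.959) in P278KY mice. Cacna1i had 2.65, 3.79 and 2.40 CPM in Cre P278KY and 1.43, 5.11, 6.09 and 4.38 CPM in Cre WT, against 10.1 to 18.8 CPM (median 13.6) in NoCre P278KY and 11.4, 14.3, 12.3, 13.5 and 13.2 CPM in NoCre WT. It fell without overlap in both genotypes, with log2 fold changes of -2.24 (adjusted p = 2.22e-05) in P278KY mice and -1.60 (adjusted p = 0.000218) in WT mice. Cacna1h passed in neither, at 0.45 in P278KY mice and 0.31 in WT mice. Among the L-type pores, Cacna1c had 24.1, 23.9 and 18.3 CPM in Cre P278KY and 10.8, 14.2, 15.3 and 13.8 CPM in Cre WT, against 12.02 to 33.1 CPM (median 17.8) in NoCre P278KY and 19.8, 18.2, 22.8, 13.1 and 34.2 CPM in NoCre WT. It fell in WT mice with overlap (-0.68, adjusted p = 0.04) and gave 0.18 (adjusted p = 0.601) in P278KY mice. Cacna1d, the other neuronal L-type pore, passed in neither (-0.09 and 0.07). Cacna1s, the skeletal muscle voltage sensor, stayed at or below 2.46 CPM, and fell in P278KY mice (-3.92, adjusted p = 0.0215). Markers of skeletal muscle moved with it, since the summed level of 10 such genes was 19.9 to 22.9 CPM in Cre P278KY against 164 to 1399 CPM in NoCre P278KY, and their part in the fall was not tested. Cacna1f, the retinal L-type pore, was at most 4.01 CPM in any library.

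The alpha2delta gene Cacna2d3 had the steepest rise of the family in both genotypes. It had 72.8, 65.8 and 58.0 CPM in Cre P278KY and 120.1, 117, 90.8 and 71.4 CPM in Cre WT, against 5.57 to 19.0 CPM (median 17.8) in NoCre P278KY and 19.9, 20.8, 21.9, 16.3 and 19.2 CPM in NoCre WT. Its log2 fold change was 2.05 ± 0.25 (SE), adjusted p = 7.89e-07 in P278KY mice and 2.34 ± 0.25 (SE), adjusted p = 1.29e-07 in WT mice, and Cre and NoCre values were far apart. Cacna2d1, a receptor of gabapentin, had 71.0, 59.2 and 60.0 CPM in Cre P278KY and 35.3, 30.3, 39.9 and 36.8 CPM in Cre WT, against 29.0 to 43.1 CPM (median 36.5) in NoCre P278KY and 39.8, 39.4, 37.6, 25.3 and 20.4 CPM in NoCre WT. It rose in P278KY mice without overlap (0.79, adjusted p = 0.00279), while in WT mice Cre and NoCre values overlapped (0.13, adjusted p = 0.605), with a direction that turned under other scalings (to -0.30 with library sizes that leave out mitochondrial ribosomal RNA). Cacna2d2, which also binds gabapentin, gave 0.34 in P278KY mice and 0.28 in WT mice and passed in neither. Cacna2d4 averaged 0.304 ± 0.210 CPM in Cre WT (SD, n = 4) and 1.40 ± 0.905 CPM in NoCre WT (SD, n = 5). Its fall there was -2.15 (adjusted p = 0.04) and was not called within pool 1 (-2.88, adjusted p = 0.113) or pool 2 (-1.83, adjusted p = 0.171).

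Of the calcium channel beta subunits, which bind the pore from inside the cell, Cacnb1 rose and Cacnb4 fell. Cacnb1, best known as the skeletal muscle form, had 31.2, 29.0 and 24.4 CPM in Cre P278KY and 37.4, 54.6, 30.6 and 30.8 CPM in Cre WT, against 6.97 to 13.4 CPM (median 10.3) in NoCre P278KY and 10.1, 8.90, 11.3, 6.57 and 8.51 CPM in NoCre WT. It rose by 1.47 ± 0.24 (SE), adjusted p = 2.37e-05 in P278KY mice and 2.07 ± 0.24 (SE), adjusted p = 2.99e-07 in WT mice, with no overlap. Cacnb4 had 43.3, 57.1 and 39.7 CPM in Cre P278KY and 36.6, 30.1, 90.2 and 52.5 CPM in Cre WT, against 96.9 to 137 CPM (median 103) in NoCre P278KY and 98.3, 126, 91.8, 38.0 and 49.4 CPM in NoCre WT. It fell in P278KY mice (-1.22, adjusted p = 0.00451), where groups did not overlap, and gave -0.62 (adjusted p = 0.0862) in WT mice. Cacnb2 gave -0.08 in P278KY mice and 0.25 in WT mice, and Cacnb3 gave 0.53 and 0.35, none past the threshold.

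In the gamma family, the TARP genes Cacng5 and Cacng3 rose and Cacng4 fell, and Cacng4 and Cacng5 are neighbours on the minus strand of chromosome 11. Cacng5 had 19.6, 33.8 and 25.9 CPM in Cre P278KY and 31.3, 29.8, 27.0 and 28.8 CPM in Cre WT, against 5.46 to 9.93 CPM (median 7.36) in NoCre P278KY and 6.11, 6.37, 9.53, 3.58 and 4.26 CPM in NoCre WT. The rise was 1.84 ± 0.26 (SE), adjusted p = 5.08e-06 in P278KY mice and 2.27 ± 0.26 (SE), adjusted p = 3.35e-07 in WT mice, with every Cre value above every NoCre value. Cacng3 had 21.7, 30.9 and 23.2 CPM in Cre P278KY and 8.21, 13.1, 13.8 and 12.1 CPM in Cre WT, against 6.53 to 10.8 CPM (median 9.49) in NoCre P278KY and 8.29, 6.78, 8.04, 6.57 and 5.32 CPM in NoCre WT. It rose in P278KY mice without overlap (1.48, adjusted p = 2.14e-05), and in WT mice (0.75, adjusted p = 0.00982) 1 Cre library lay within the NoCre range. Cacng4 had 9.70, 7.87 and 14.0 CPM in Cre P278KY and 7.65, 8.32, 10.8 and 15.3 CPM in Cre WT, against 24.5 to 61.3 CPM (median 27.8) in NoCre P278KY and 22.0, 32.8, 27.3, 39.4 and 37.6 CPM in NoCre WT. Its log2 fold changes were -1.64 (adjusted p = 0.000203) in P278KY mice and -1.58 (adjusted p = 0.000108) in WT mice, and again the groups were apart. Cacng2, Cacng7 and Cacng8 passed in neither genotype, with log2 fold changes of -0.29, -0.70 and 0.31 in P278KY mice and 0.71, -0.23 and 0.58 in WT mice. Cacng1 and Cacng6 reached no more than 0.794 and 0.298 CPM in any library.

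Several of these calls were lost without single libraries or under another scaling. In P278KY mice Scn1a was lost without Cre P278KY replicate 1 (0.47) or 2 (0.47), Scn3a without the same libraries (-0.66 and -0.71), Scn9a without Cre P278KY replicate 1 (0.81), and Cacna1s without any Cre P278KY library or NoCre P278KY replicate 1 (-4.54 to -3.18). In WT mice Scn8a was lost without Cre WT replicate 3 (0.48) or 4 (0.57). Scn9a was lost without Cre WT replicates 1, 3 or 4 or NoCre WT replicates 1, 4 or 5 (0.64 to 0.80), and Cacna1g without Cre WT replicates 1, 3 or 4 or NoCre WT replicates 1, 2 or 3 (0.41 to 0.56). Scn7a was lost without Cre WT replicates 1, 2 or 3 or NoCre WT replicates 1 or 2 (-1.14 to -0.87), and Cacna1c without Cre WT replicates 1, 2 or 4 or NoCre WT replicates 3 or 5 (-0.74 to -0.43). Cacna2d4 was lost without Cre WT replicates 1 or 2 or NoCre WT replicates 1, 3 or 5 (-2.17 to -1.77). Library sizes without mitochondrial ribosomal RNA, which lower the folds of Cre over NoCre, ended the rises of Scn1a and Scn9a in both genotypes, of Scn2b and Cacna2d1 in P278KY mice, and of Scn8a, Cacng3 and Cacna1g in WT mice. With library size alone the folds in P278KY mice stayed close to those above while several calls were lost, with log2 fold changes of -0.75 for Scn3a, -0.72 for Cacna1a, -1.15 for Cacnb4, -0.73 for Cacna1e, 0.54 for Scn1a, 0.81 for Cacna2d1 and 1.01 for Scn9a. The call of Scn10a was lost there too (adjusted p = 0.0638). In WT mice that scaling raised the folds, and calls were lost for Scn2a1 (-0.82), Scn7a (-1.04), Cacna1c (-0.37), Cacna2d4 (-1.89), Cacna1e (-0.70), Scn8a (0.94) and Scn9a (0.97). Within pool 2 the fall of Cacna1e in WT mice was -0.81 (adjusted p = 0.0502).

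The comparison of Cre P278KY with Cre WT asked how the channel mRNAs on cholinergic ribosomes differed with the Gars mutation. Scn2b, Cacna2d1 and Cacng3 rose, and no channel gene fell, among 32 tested. Over all 14717 genes 2.32% passed (1.22% higher and 1.11% lower). At an unadjusted p under 0.05 there were 6 higher and 7 lower in edgeR, beside 2378 of all 14717 genes. At the adjusted threshold DESeq2 called 5 higher and 4 lower, beside 972 of all genes. With limma voom 2 were higher and 0 lower, beside 303 of all genes. Groups did not overlap for 12 of the 32 (16.6% of all genes), and the median log2 fold change was -0.13, against -0.01 over all genes. By family, 1 of 4 sodium beta, 1 of 4 alpha2delta and 1 of 6 gamma genes passed, and none of the 6 sodium alpha, 8 alpha1 and 4 calcium beta genes. No Cre P278KY library was in pool 2, so a comparison within pool 1 set 3 libraries against 2. There Xist was low in both Cre WT libraries (0.311 and 0.0824 CPM) and in Cre P278KY replicate 1, and high in Cre P278KY replicates 2 and 3 (82.7 and 148 CPM). Values within pool 1 are thus free of pool but partly mix genotype with sex.

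Scn2b (chromosome 9, 45117782 to 45130070, plus strand, GRCm38, gene ENSMUSG00000070304) had 107, 102 and 109.5 CPM in Cre P278KY, against 43.5, 52.0, 45.1 and 46.8 CPM in Cre WT. All 3 mutant values were above all 4 wild-type values, and within each group they lay close together. The log2 fold change was 1.21 ± 0.16 (SE), adjusted p = 0.00346, a 2.31-fold higher level, and 1.23 (adjusted p = 0.00347) within pool 1. The call held under all alternatives except scaling by library size alone (adjusted p = 0.0548). Cacna2d1 (chromosome 5, 15934691 to 16374511, plus strand) had 71.0, 59.2 and 60.0 CPM in Cre P278KY, against 35.3, 30.3, 39.9 and 36.8 CPM in Cre WT. The groups did not overlap, and the log2 fold change was 0.85 ± 0.19 (SE), adjusted p = 0.0464, with 1.02 (adjusted p = 0.0132) within pool 1. The call was lost when any 1 of the 7 libraries was left out, with adjusted p from 0.0502 to 0.252 and log2 fold changes from 0.74 to 0.92. Cacng3 (chromosome 7, 122670492 to 122769393, plus strand) had 21.7, 30.9 and 23.2 CPM in Cre P278KY, against 8.21, 13.1, 13.8 and 12.1 CPM in Cre WT. The lowest mutant value was above the highest wild-type value, at 1.12 ± 0.24 (SE), adjusted p = 0.0403, with 1.33 (adjusted p = 0.0123) within pool 1. Leaving out any library other than Cre WT replicate 3 ended the call (adjusted p from 0.062 to 0.184). With scaling by library size alone both were lost too (adjusted p = 0.316 for Cacna2d1 and 0.272 for Cacng3), as they were with library sizes that leave out mitochondrial ribosomal RNA (adjusted p = 0.28 and 0.242), and Cacna2d1 was lost with limma voom (adjusted p = 0.0524).

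**Figure D3:**
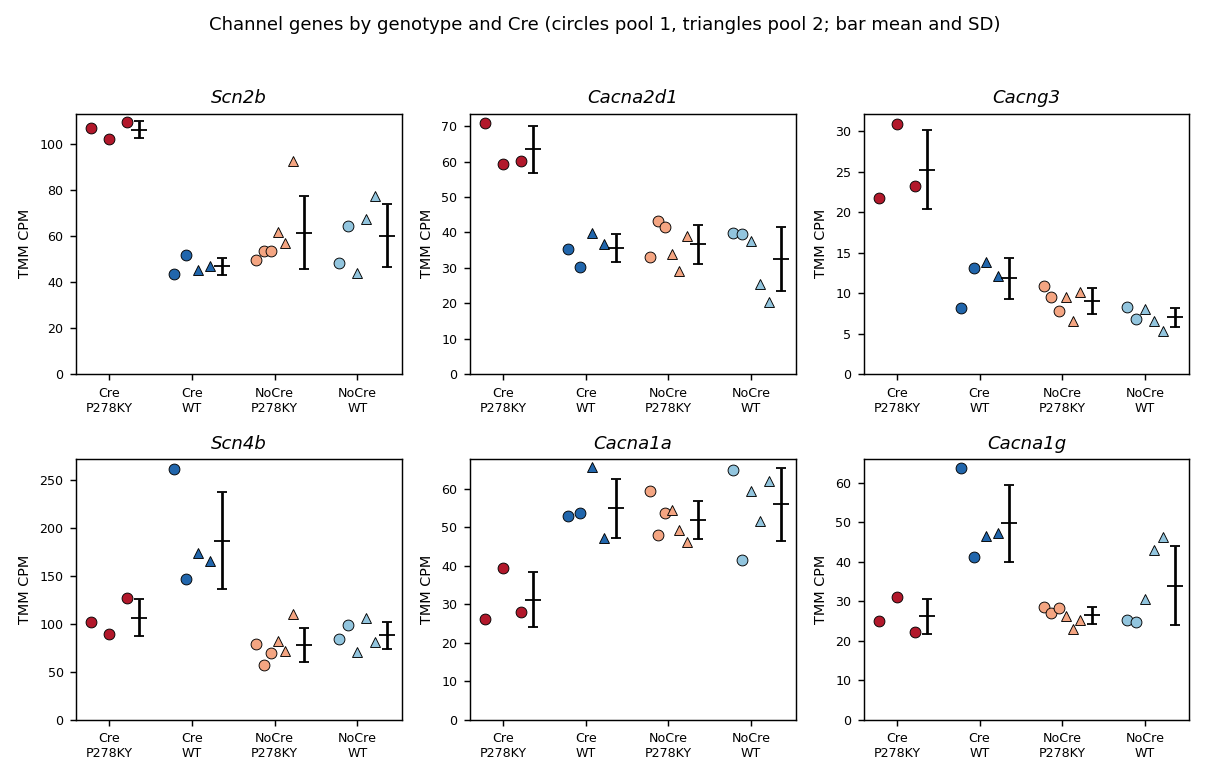
TMM-scaled CPM per library (circles for pool 1, triangles for pool 2) with the group mean and SD, for the 3 channel genes that passed between Cre P278KY and Cre WT (top) and 3 that did not (bottom). Cre P278KY libraries of Scn2b lie between 102 and 109.5 CPM, above every other library, while those of Scn4b, Cacna1a and Cacna1g lie below every Cre WT library.

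Several channel genes had groups that did not overlap without passing the test. Scn4b, which lies next to Scn2b on chromosome 9 in the same orientation (chromosome 9, 45138395 to 45154152, plus strand), had 102, 89.5 and 127 CPM in Cre P278KY, against 262, 147, 174 and 166 CPM in Cre WT, which gave -0.79 ± 0.24 (SE), adjusted p = 0.131 on the log2 scale. Its mutant values were all lower, opposite to those of its neighbour. Cacna1g had 25.0, 31.1 and 22.3 CPM in Cre P278KY, against 63.8, 41.2, 46.6 and 47.2 CPM in Cre WT (-0.90 ± 0.22 (SE), adjusted p = 0.0734), and Cacna1a had 26.1, 39.4 and 28.1 CPM in Cre P278KY, against 53.1, 53.9, 65.6 and 47.3 CPM in Cre WT (-0.79 ± 0.21 (SE), adjusted p = 0.0871). In both the mutant libraries were the lower ones. Within pool 1 the values were -0.88 (adjusted p = 0.0559) for Scn4b, -0.94 (adjusted p = 0.0377) for Cacna1g and -0.70 (adjusted p = 0.0696) for Cacna1a, so Cacna1g passed there, and all 3 passed with DESeq2 (adjusted p = 0.0339, 0.00831 and 0.0155). Cacna1c (0.74, adjusted p = 0.118; 0.91 (adjusted p = 0.041) within pool 1), Scn3a (0.78, adjusted p = 0.129) and Cacna1e (0.51, adjusted p = 0.199) were higher in every Cre P278KY library, and Scn1a (-0.49, adjusted p = 0.292) and Cacna1d (-0.52, adjusted p = 0.232) lower. Outside the naming rule, Scn2a1, named with its values known, had 51.2, 57.2 and 47.4 CPM in Cre P278KY, against 24.01, 22.4, 30.9 and 25.0 CPM in Cre WT. It rose (1.04 ± 0.19 (SE), adjusted p = 0.0203), and the call was lost in 5 of the 7 fits that each left out a library (log2 fold changes from 0.96 to 1.14), with library size alone (1.06, adjusted p = 0.252) and without mitochondrial ribosomal RNA in the library size (1.08, adjusted p = 0.218). The other tested channel genes, apart from Scn10a, which is described with Scn11a, ran from -0.67 for Scn7a to 0.51 for Scn9a with overlapping groups.

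Markers of cell types moved between Cre P278KY and Cre WT as well. Of 12 motor neuron markers 1 fell, Chodl, a marker of fast motor neurons (-2.53, adjusted p = 0.0032), and of 10 interneuron markers 1 rose, the enkephalin gene Penk (1.11, adjusted p = 0.0271). The summed interneuron level was 386 to 490 CPM in Cre P278KY and 185 to 416 CPM in Cre WT, against 578 to 765 CPM in NoCre P278KY and 442 to 1499.7 CPM in NoCre WT. Of 4 tested Schwann cell markers 2 fell, Pmp22 (-0.85) and Prx (-1.71), with sums of 179 to 237 CPM in Cre P278KY and 350 to 499 CPM in Cre WT. No oligodendrocyte marker of 10 passed, with sums of 718 to 1803 CPM in Cre P278KY and 763 to 4270 CPM in Cre WT. No skeletal muscle marker of 10 passed, but their sums did not overlap, at 19.9 to 22.9 CPM in Cre P278KY and 36.0 to 288 CPM in Cre WT, and the median log2 fold change was -2.63. No astrocyte or vascular marker of 8 each passed, with median log2 fold changes of -1.38 and -1.17. The astrocyte sums were 535 to 982 CPM in Cre P278KY and 419 to 1399 CPM in Cre WT, and the vascular sums 29.3 to 61.9 CPM in Cre P278KY and 30.8 to 183 CPM in Cre WT. Within Cre WT, oligodendrocyte sums were 763 and 1215 CPM in pool 1 and 3855 and 4270 CPM in pool 2. Astrocyte sums were 419 and 623 against 1399 and 1145 CPM, and vascular sums 30.8 and 33.2 against 138 and 183 CPM. Muscle sums were 156 and 288 against 50.2 and 36.0 CPM. Motor neuron sums were 3669 and 3420 against 2260 and 2070 CPM, with 1868 to 2352 CPM in Cre P278KY, all in pool 1. The part of these cells in the channel differences was not tested.

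Whether the Cre effect differed with genotype was tested as an interaction over all 18 libraries, in which no channel gene of 36 passed with edgeR, where 0.654% of all genes did. At an unadjusted p under 0.05 there were 4 higher and 3 lower, beside 1904 of all 17133 genes. DESeq2 and limma voom each called 1, Scn2b, beside 382 and 143 of all genes. Scn2b gave 1.16 ± 0.29 (SE), adjusted p = 0.0626, Cacna2d1 0.67 ± 0.30 (SE), adjusted p = 0.394 and Cacng3 0.74 ± 0.34 (SE), adjusted p = 0.425. Scn2b passed in 7 of 29 alternatives, among them pool as a term (adjusted p = 0.0388). It also passed without NoCre P278KY replicate 6 (adjusted p = 0.00806), the library with 92.6 CPM of it. With library size alone its adjusted p was 0.712. Its log2 value was between 0.85 and 1.36 over all alternatives. Between NoCre P278KY and NoCre WT no channel gene passed with edgeR, DESeq2 or limma voom, where 0.0233% of all genes passed with edgeR. None had an unadjusted p under 0.05 in edgeR, beside 1160 of all 17133 genes. The NoCre groups overlapped for all 36 tested channel genes, and did not for 0.718% of all genes. Scn2b, Cacna2d1 and Cacng3 gave 0.03, 0.17 and 0.36 there. Chat itself was lower in NoCre P278KY than in NoCre WT (-1.45, adjusted p = 0.0339). The interaction and the other comparisons share libraries.

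Scn10a and Scn11a, pores of pain-sensing neurons, are neighbours on chromosome 9 and varied widely between libraries. Scn10a had 0, 0 and 0 CPM in Cre P278KY and 0.871, 0.906, 0.396 and 7.09 CPM in Cre WT, against 0 to 9.83 CPM (median 0.162) in NoCre P278KY and 0, 2.93, 3.97, 7.56 and 0.304 CPM in NoCre WT. It had 0 reads in all 3 Cre P278KY libraries, and Cre WT replicate 4, NoCre P278KY replicate 4 and NoCre WT replicate 4 were the highest of their groups. With 3 reads over the Cre P278KY group as a floor, its level was at least 48.4-fold lower there than in Cre WT, and at least 12.5-fold lower without Cre WT replicate 4, but the test between these groups did not pass (adjusted p = 0.0878). It passed with DESeq2 (adjusted p = 1.99e-05) and within pool 1 (adjusted p = 0.03). With 0 reads in Cre P278KY, Scn10a entered these fits through its Cre WT counts alone, so a difference could only be a fall. Cre WT held 203 reads of it, and 38 without replicate 4. These values are therefore given as a description. Against NoCre P278KY it was at least 42.6-fold lower and passed (adjusted p = 0.0485), but there too a difference could only be a fall. Without NoCre P278KY replicate 4 this bound was 2.54-fold, with 8 of 169 NoCre P278KY reads left, and the call was lost in 11 of 19 alternatives. Such floors cover counting error only. Scn11a had 0.237, 0.0408 and 0 CPM in Cre P278KY and 0.249, 0.741, 0.0304 and 6.53 CPM in Cre WT, against 0 to 5.68 CPM (median 0.0419) in NoCre P278KY and 0.0872, 1.72, 1.39, 11.1 and 0.304 CPM in NoCre WT. The same replicates 4 were highest, and no test of it passed.

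**Figure D4:**
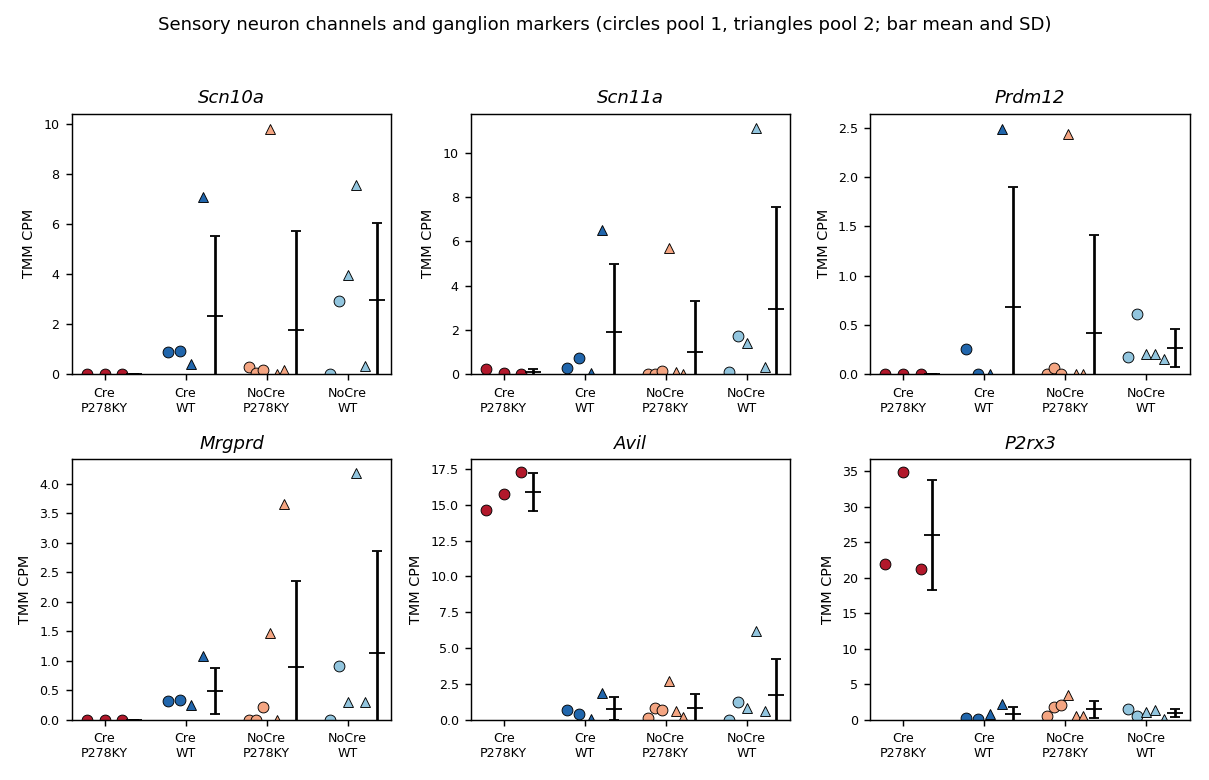
TMM-scaled CPM per library (circles for pool 1, triangles for pool 2) with group mean and SD, cut at 0, for Scn10a, Scn11a and 4 sensory ganglion markers. Scn10a and Scn11a are high in replicate 4 of Cre WT, NoCre P278KY and NoCre WT, while Avil and P2rx3 are high in all 3 Cre P278KY libraries.

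Some sensory ganglion markers had their highest libraries in common with these channels, and some went the opposite way between the Cre genotypes. Prdm12, a transcription factor of nociceptors, had 0, 0 and 0 CPM in Cre P278KY and 0.249, 0, 0 and 2.49 CPM in Cre WT, against 0 to 2.44 CPM (median 0) in NoCre P278KY and 0.174, 0.607, 0.199, 0.199 and 0.152 CPM in NoCre WT. Its highest values were in the replicates 4 of Cre WT and NoCre P278KY. Mrgprd, a receptor of skin nociceptors, was at 0 in all Cre P278KY libraries. It reached 1.07 CPM in Cre WT (replicate 4), 3.66 CPM in NoCre P278KY (replicate 6) and 4.18 CPM in NoCre WT (replicate 4). Avil and P2rx3, also on the list, went the other way, with Avil at 14.6, 15.8 and 17.3 CPM in Cre P278KY against 0.684, 0.412, 0.0609 and 1.89 CPM in Cre WT. P2rx3, an ATP-gated channel, had 21.9, 34.9 and 21.2 CPM in Cre P278KY and 0.187, 0.165, 0.761 and 2.19 CPM in Cre WT. Both rose, Avil by 4.35 (adjusted p = 0.0216) and P2rx3 by 4.86 (adjusted p = 0.0102) on the log2 scale. In the other groups Avil was highest in replicate 4 of Cre WT (1.89 CPM), NoCre P278KY (2.69 CPM) and NoCre WT (6.17 CPM). P2rx3 was highest in replicate 4 of Cre WT (2.19 CPM) and NoCre P278KY (3.54 CPM), and in replicate 1 of NoCre WT (1.57 CPM). All 3 genes of the list that were tested between the Cre genotypes were higher in every Cre P278KY library than in any Cre WT library, and 2 passed. They entered this fit through their Cre P278KY counts, so a difference could only be a rise. These values are therefore given as a description. Over the 8 listed genes the sum was 37.5 to 51.7 CPM in Cre P278KY and 1.40 to 9.16 CPM in Cre WT, against 1.198 to 11.5 CPM in NoCre P278KY and 2.27 to 13.1 CPM in NoCre WT. Of the list, 3 genes had no count in Cre P278KY, Prdm12 and Mrgprd among them. The part of sensory neurons in the levels of Scn10a, Scn11a and Scn7a was not tested.

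The deposited effective length, the average length of a gene's transcripts weighted by their estimated abundance, describes which transcripts were counted. Groups were set apart where their lengths did not overlap and their medians differed by 20%. Between Cre P278KY and Cre WT this held for Cacna1b, with median lengths of 8553 and 6165 bases, and Cacna1g, with 5853 and 4824 bases, and for 1.25% of all genes. In P278KY mice Cre and NoCre differed for Cacnb1 (2295 and 1885 bases) and Cacna2d1 (5480 and 7178 bases), and for 5.17% of all genes. In WT mice Cre and NoCre differed for 5 channel genes, and for 4.44% of all genes. Cacna1a had 5799 bases in Cre WT and 2876 in NoCre WT, and Cacna1g 4824 and 2993. Cacna1b had 6165 and 8490 bases, Cacna2d1 4919 and 7254, and Scn1a 3209 and 3977. The pore genes Cacna1a and Cacna1g were thus counted from longer transcripts in Cre WT, and the other 3 from shorter ones. For Cacna1a this separated TPM from CPM, since it averaged 14.9 ± 7.51 TPM in Cre WT (SD, n = 4) and 23.9 ± 10.4 TPM in NoCre WT (SD, n = 5), with CPM of 55.0 ± 7.69 and 56.0 ± 9.50.

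Genes of proteins that work with the channels passed between Cre and NoCre, and none did between Cre P278KY and Cre WT. Over all genes, 59.4% were called between Cre and NoCre in P278KY mice and 59.7% in WT mice, so the counts of the partner lists are given as a description. Of sodium channel partners, 6 of 18 rose and 5 fell in P278KY mice, and 8 rose and 4 fell in WT mice. Rises in WT mice, given as log2 fold changes, included the fibroblast growth factor homologues Fgf11 (2.08) and Fgf12 (1.72), which bind the tails of sodium pores, the endocytic adaptor Pacsin2 (1.41) and the leak channel Nalcn (0.95). Falls included the potassium channel Kcnq3 (-1.44), the adhesion molecule Cntn2 (-0.88), the leak channel subunit Unc79 (-0.74) and the ubiquitin ligase Nedd4l (-0.70). Of calcium channel partners, 10 of 17 rose and 4 fell in P278KY mice, and 8 rose and 3 fell in WT mice. The calmodulin gene Calm2 (2.95), the vesicle GTPase gene Rab3a (2.48) and Gem (3.02), an inhibitor of calcium channels, rose in WT mice, and Camk2a (-1.72), Ahnak (-2.77) and Stac3 (-3.88) fell.

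Of 20 genes of calcium stores and clearance, 9 rose and 6 fell in each genotype, beside 59.4% of all genes called in P278KY mice and 59.7% in WT mice. In WT mice the calcium pumps Atp2a2 (1.197), Atp2b3 (1.22) and Atp2b1 (0.85) and the store channel Itpr3 (1.94) rose, while Itpr2 (-2.45), Ryr3 (-1.28) and the calcium-binding proteins Calb1 (-1.72) and Pvalb (-0.86) fell. Between Cre P278KY and Cre WT none of the 18 sodium partners, 16 calcium partners and 20 store genes passed with edgeR. Over all 14717 genes, 2378 had an unadjusted p under 0.05 in edgeR. In these lists there were 2 higher and 1 lower, 1 higher and 3 lower, and 3 higher and 6 lower at that threshold. Their medians were -0.12, 0.09 and -0.07, against -0.01 over all genes.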

How the data were processed

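Polysome-associated RNA of 18 spinal cords, 1 library per mouse label, was measured by RNA-seq after pull-down of HA-tagged ribosomes. The deposited tables give RSEM expected counts per gene, per the file headers, and the submitters' processing notes name Bowtie2 2.2.0 and RSEM 1.2.12. The genome build is not given in the sources used here. The same tables hold TPM and an effective length per gene, made by the authors with RSEM, per the file headers. TPM scale to 1000000 per library and so rise for all genes where mitochondrial ribosomal RNA takes less.

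Expected counts were rounded to whole numbers, and genes passing edgeR's filter for low counts (minimum 10) were fitted by edgeR's quasi-likelihood test with TMM scaling (edgeR 4.0.16, R 4.3.3), with Benjamini-Hochberg adjustment over all genes tested and a threshold of 0.05. Cre P278KY and Cre WT were compared in a fit of their 7 libraries. The comparisons with NoCre and the interaction came from a fit of all 18 libraries, whose TMM factors also gave the CPM printed. Alternatives were RLE factors, library size alone, library size without mt-Rnr1 and mt-Rnr2, no filter, a filter at 1 CPM, pool as a term, fits within pools, mouse number as a block, each library left out, DESeq2 1.42.0 and limma voom (limma 3.58.1), and, chosen after seeing the data, leaving out NoCre WT replicates 4 and 5. Scripts were tested on simulated data. Floors for a count of 0 cover counting error only. Depth was 8177758 to 24028649 counts per library.

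Values in every sample, or the range and median in the 6 NoCre P278KY libraries, are given for channel genes that passed between Cre P278KY and Cre WT, and for the up to 10 largest rises and falls against NoCre with a mean log2 CPM above 1, and each partner list is represented by at most 4 genes per direction, those with the lowest adjusted p in WT mice. Other channel genes, and Scn2a1, were named with their values known. The members and lists were chosen with earlier results of these data known. Some genes that these rules would name, among them 2 of the 39, are not reported here. Pools were read from index and sample numbers in the labels. Gene positions are from GENCODE M21 (GRCm38) and promoter windows from RefSeq (GRCm38.p6), neither being the authors' stated build. The tables do not state whether counting used strand, so overlapping antisense genes cannot be told apart.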

Additional observations from a re-analysis of the deposited data

Results flagged for a closer look

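Of 117 sets of a channel gene's values in a group of 4 to 6 libraries, 12 had 1 library far from the rest by Dixon's criterion, which chance meets in about 1 in 20 sets. NoCre P278KY replicate 6 accounted for 5 of them, with 92.6 CPM for Scn2b, 154.6 CPM for Cacng2, 61.3 CPM for Cacng4, 4.01 CPM for Cacna1f and, below the other libraries, 5.57 CPM for Cacna2d3. Replicate 4 stood apart for Scn11a in Cre WT (6.53 CPM), NoCre P278KY (5.68 CPM) and NoCre WT (11.1 CPM), and for Scn10a in Cre WT (7.09 CPM) and NoCre P278KY (9.83 CPM). Scn7a was apart at 13.6 CPM in Cre WT replicate 4, and Cacng6 at 0.298 CPM in NoCre WT replicate 3.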

How the results depend on the processing

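Between Cre P278KY and Cre WT, where 3 channel genes were higher and 0 lower, the number higher was 5 with DESeq2, 0 with library size alone, 1 without mt-Rnr1 and mt-Rnr2 in the library size, 6 with pool as a term, 5 within pool 1, and 1 to 2 with a library left out. The number lower was 4 with DESeq2, 3 with pool as a term, 3 within pool 1, and 0 to 1 with a library left out. Over all genes 342 calls became 972 with DESeq2, 148 with library size alone, 157 without the mitochondrial genes, 1676 with pool as a term, 1343 within pool 1 and 95 to 324 with a library left out. The cause was not tested.

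Across groups, deviations from the group means were on the median no more alike between libraries with the same mouse number than between others. Pool and sex were left in these deviations, and so few pairs cannot show that pairing is absent. The 12 pairs with the same number in different groups had a median correlation of -0.0104, against -0.00381 in 107 other pairs. Libraries that share a number within a group were not examined this way, so a link between them was not tested. With mouse number as a replicate block, 4 channel genes were lower between Cre P278KY and Cre WT, 1 was higher in the interaction, and the calls over all genes numbered 1664. Against NoCre the block ended the calls of Cacna1s (-2.07, adjusted p = 0.344), Scn1a (adjusted p = 0.0603), Scn3a (adjusted p = 0.078) and Scn10a (adjusted p = 0.15) in P278KY mice, and of Scn8a (adjusted p = 0.061) and Cacna2d4 (adjusted p = 0.055) in WT mice.

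In WT mice, where 10 rose and 9 fell against NoCre, 5 rose without the mitochondrial genes, 5 fell with library size alone, and 4 fell within pool 2, with 4955 calls over all genes there. Leaving out a library gave 7 to 11 rises and 6 to 10 falls. In P278KY mice, with 9 rises and 10 falls, 5 rose without the mitochondrial genes, 5 fell with library size alone, and leaving out a library gave 7 to 10 of each. Against NoCre, 47.7% of calls over all genes were higher in WT mice and 47.5% in P278KY mice, and 28.7% and 28.0% without the mitochondrial genes, where the median of all genes moved to -0.54 in WT mice and -0.59 in P278KY mice. With library size alone 59.2% were higher in WT mice, with a median of 0.20. Between the Cre genotypes 52.3% of calls were higher, 62.8% with library size alone and 63.1% without the mitochondrial genes. Scn8a turned between Cre P278KY and Cre WT to 0.0358 with pool as a term and 0.036 within pool 1. It was called lower with the replicate block (-0.85, adjusted p = 0.0377), where genotype and pool cannot be told apart. Scn2b turned to 0.0117 in WT mice with library size alone. Cacna2d1 turned there to -0.00783 with RLE factors, -0.302 without the mitochondrial genes, -0.0109 with DESeq2, -0.244 within pool 1 and -0.156 without NoCre WT replicates 4 and 5.

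In the interaction the number higher was 1, Scn2b, with DESeq2, limma voom, pool as a term and within pool 1, and 0 to 1 with a library left out. Calls over all genes, 112, became 382 with DESeq2, 5 with library size alone, 28 without the mitochondrial genes, 406 within pool 1 and 41 to 250 with a library left out, and the share of higher calls, 52.7%, was 64.3% without the mitochondrial genes. Between the NoCre genotypes no channel gene passed in any alternative, while the 4 calls over all genes ranged from 1 with limma voom to 28 with DESeq2, and higher calls made up 0% of them, 50% with library size alone, which moved the median of all genes to 0.35, and 33.3% without the mitochondrial genes. With 3 and 4 libraries in the Cre groups, depth and sample number limit small differences, and genes near 0 CPM (Scn4a, Cacng1, Cacng6, Cacna1s, Cacna1f and Cacna2d4) could be compared at most coarsely.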
